A study of Mus musculus with 9 samples.

Results

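Arteries and veins are lined by endothelial cells (ECs) with distinct gene expression, and 10 genes that mark these identities were examined in ECs sorted from mouse lungs. They were chosen by name, as 7 arterial identity genes (Gja4, Gja5, Sox17, Bmx, Fbln5, Ltbp4 and Mgp) and 3 venous identity genes (Nr2f2, Slc6a2 and Amigo2), out of 18193 genes measured. These genes and the marker lists used below were chosen with earlier results of these data known. All 10 had at least 1 probe set and none was removed by a filter. Lungs came from NSG mice, an immunodeficient strain, in 3 groups of 3 arrays. The first group had lung metastases and received DC101, an anti-VEGFR2 antibody of rat origin that inhibits VEGF signalling, at 40 mg per kg into the peritoneum on days 21 and 24. The second group had metastases and received rat IgG on those days. The third group was healthy, matched in age and given rat IgG. Metastases were seeded by tail-vein injection of MDA-MB-231-LM2 cells, a lung-tropic derivative of a human breast cancer line, into mice of 6 to 8 weeks of age, and lungs were taken on day 25 (week 3 in the labels). ECs were sorted as CD31-positive cells that lacked the leukocyte markers CD45 and CD11b, the epithelial marker EpCAM, the mesenchymal markers CD140a/b and the cancer cell label GFP. The sorted cells therefore pooled arterial, venous, capillary and lymphatic ECs of the whole lung, near to and far from metastases. Replicates are labelled biological, but whether each array is its own mouse is not stated. The p-values therefore reflect the spread among these samples only, and precision is limited by having only 3 arrays a group.

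Arterial identity is set up by VEGF and Notch signalling together with SOXF transcription factors, and keeps Notch ligands, gap junction connexins and elastic matrix proteins high in arterial ECs. Venous identity depends on the nuclear receptor encoded by Nr2f2, which restrains Notch signalling in venous ECs and also acts with Prox1 in lymphatic ECs. In the lung, capillaries make up most of the endothelium. In a bulk sample, fewer cells of a vessel type and less RNA per cell cannot be told apart.

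The arrays bear the endothelial label out in all groups. The 12 pan-endothelial markers, Pecam1 and Cdh5 among them, had a mean level of 13.44 to 13.55 over the DC101 arrays, 13.5 on the metastatic IgG arrays and 13.58 to 13.61 on the healthy arrays, on a log2 scale that ran between 5.4 and 14.84. None of the 12 was called in any comparison. Between metastatic IgG and healthy lungs, 6 of them were fully separated lower and 1 higher, against 14.7% and 13% of all genes. Arrays within a group correlated at r = 0.983 to 0.987 for DC101, 0.988 to 0.989 for metastatic IgG and 0.988 to 0.991 for healthy lungs over all genes, and the SD of a typical gene (the median over genes) was 0.171 for DC101, 0.139 for metastatic IgG and 0.135 for healthy lungs. The Gapdh 3-prime minus 5-prime signal, a measure of RNA integrity and labelling, was 0.35 to 0.6 on DC101 arrays, 0.47 to 0.57 on metastatic IgG arrays and 0.69 to 0.77 on healthy arrays. It thus separated healthy arrays from all metastatic ones, and its part in the differences from healthy lungs was not tested.

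Among the genes called between metastatic IgG and healthy lungs, each identity had changes in both directions. In metastatic IgG lungs, the elastic fibre gene Fbln5 was 1.71-fold higher and the venous regulator Nr2f2 1.58-fold higher than in healthy lungs. The arterial genes Bmx (1.45-fold) and Ltbp4 (1.51-fold) and the venous genes Slc6a2 (1.51-fold) and Amigo2 (1.9-fold) were lower. In all, 6 of 10 genes were called at an adjusted p under 0.05 (limma, Benjamini-Hochberg adjustment over 18193 genes), against 6.53% of all genes. There were 2 called higher, against 3.93% of all genes, and 4 called lower, against 2.6%. Over 13 alternative settings and left-out arrays, the venous calls held in 5 for Nr2f2 and Amigo2 and in 4 for Slc6a2. Without healthy replicate 1, 0 of the 10 genes were called. All 10 lay above the median level of genes. With only genes above that level tested, 6 of the 10 were called, beside 1345 of 9096 genes. At an unadjusted p under 0.05 there were 7 of 10, against 21.3% of all genes. Metastatic IgG and healthy arrays were fully separated for 7 genes, 3 higher and 4 lower, against 27.6% of all genes (13% higher and 14.7% lower). The median change of the 10 genes was -0.18 on the log2 scale, beside -0.02 over all genes. Their median absolute change was 0.56, beside 0.15 over all genes. Because the genes were chosen with earlier results of these data known, these shares are descriptions and not independent support.

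**Figure D1:**
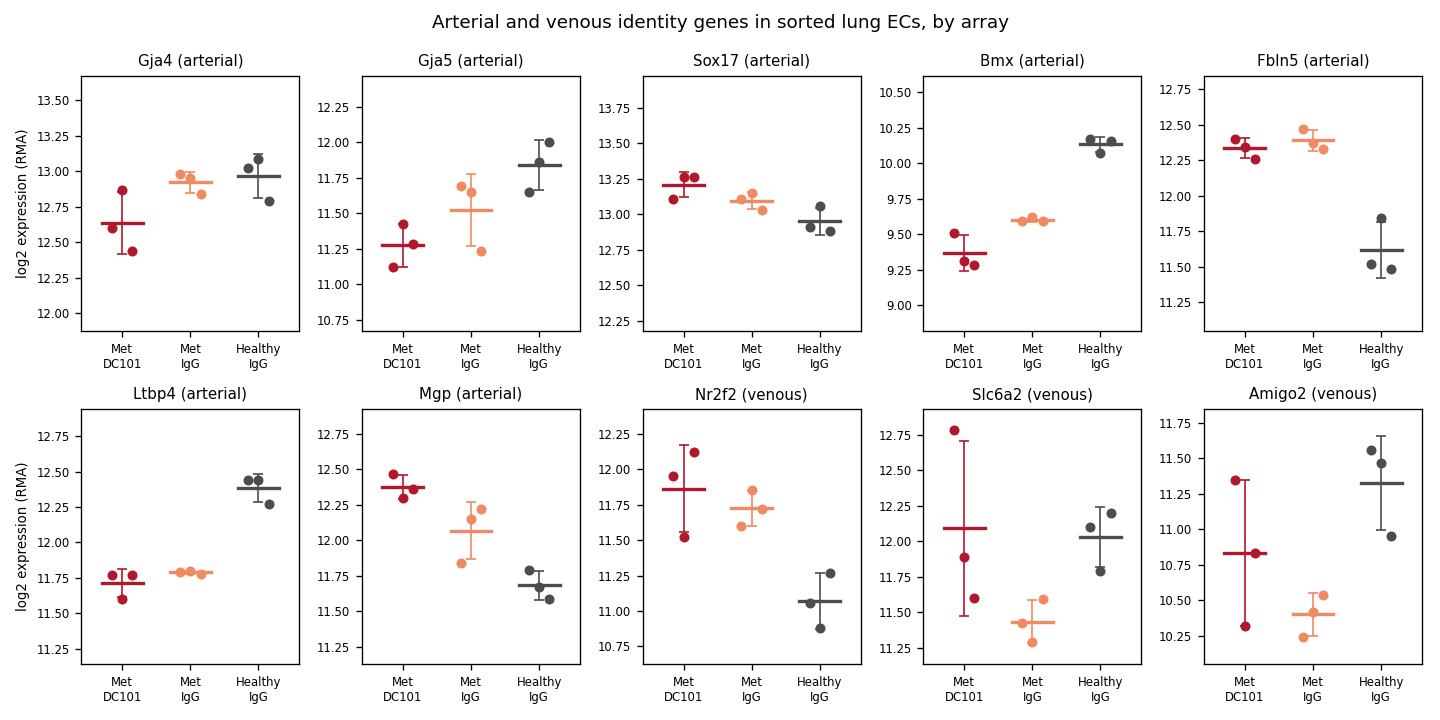
Level of each identity gene on every array (log2 expression as deposited, y axis) in ECs of metastatic lungs given DC101, metastatic lungs given IgG and healthy lungs given IgG. Points are arrays, bars are group means and whiskers are SDs (n = 3), and every panel spans the same number of log2 units around its own centre. Bmx and Ltbp4 sit highest and Fbln5, Mgp and Nr2f2 lowest on the healthy arrays, while Slc6a2 has its spread on the DC101 arrays.

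The gap junction connexins Gja4 and Gja5, which couple arterial ECs electrically, did not pass the test in any comparison. Gja4 read 12.6, 12.87 and 12.44 on the DC101 arrays, 12.98, 12.95 and 12.84 on the metastatic IgG arrays and 13.02, 13.09 and 12.79 on the healthy arrays. The ranges of every pair of groups overlapped. Its change was -0.04 (SE 0.11, 95% interval -0.3 to 0.22, adjusted p = 0.874, limma) between metastatic IgG and healthy lungs. Gja5 read 11.12, 11.42 and 11.28 under DC101, 11.69, 11.65 and 11.23 with metastatic IgG and 11.65, 11.86 and 12 in healthy lungs. All DC101 arrays lay below all healthy arrays, whereas the metastatic IgG arrays overlapped both other groups. For Gja5 the change from healthy lungs was -0.56 (SE 0.14, 95% interval -0.88 to -0.25, adjusted p = 0.0916) under DC101 and -0.31 (SE 0.16, 95% interval -0.68 to 0.06, adjusted p = 0.31) with IgG.

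Sox17, a SOXF transcription factor required for arterial specification in mouse, moved little on its brighter probe set. That probe set (1429177_x_at) read 13.11, 13.26 and 13.26 on DC101 arrays, 13.11, 13.15 and 13.03 on metastatic IgG arrays and 12.91, 13.06 and 12.88 on healthy arrays. Only the DC101 and healthy ranges did not overlap, and the change between them was 0.26 (SE 0.11, adjusted p = 0.288, limma). The other Sox17 probe set (1421657_a_at) read 10.99, 11.43 and 11.15 under DC101, 10.85, 11.34 and 11.27 with metastatic IgG, and 10.77, 10.32 and 10.24 in healthy lungs. Both metastatic groups lay above the healthy arrays on it. Tested alone over 34945 probe sets, its change was 0.71 (SE 0.19, adjusted p = 0.092) for metastatic IgG and 0.75 (SE 0.18, adjusted p = 0.13) for DC101 against healthy lungs. The 2 probe sets therefore gave the same direction with different sizes, and neither passed. The brighter one is of a type that can cross-hybridise. Both were left out in the alternative without probe sets ending in _s_at, _x_at or _a_at.

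Bmx, a Tec-family kinase of arterial endothelium, was lower in both metastatic groups. It read 9.51, 9.31 and 9.28 under DC101, 9.59, 9.62 and 9.59 with metastatic IgG and 10.17, 10.07 and 10.16 in healthy lungs. No ranges overlapped, and the groups ran DC101, metastatic IgG, healthy from low to high. Bmx fell by 0.53 on the log2 scale in metastatic IgG lungs relative to healthy ones (SE 0.08, 95% interval -0.73 to -0.34, adjusted p = 0.0132, limma). Under DC101 it fell by 0.77 relative to healthy lungs (SE 0.11, 95% interval -1.02 to -0.51, adjusted p = 0.0179), a 1.7-fold lower level. The step between the 2 metastatic groups was -0.23 (SE 0.11, 95% interval -0.48 to 0.02, adjusted p = 0.75) and did not pass.

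Fbln5, Ltbp4 and Mgp encode extracellular matrix proteins of arterial walls, and they did not move together. Fbln5 (fibulin-5, an organiser of elastic fibres) read 12.4, 12.34 and 12.26 under DC101, 12.47, 12.37 and 12.33 with metastatic IgG and 11.52, 11.84 and 11.48 in healthy lungs. Every metastatic array exceeded every healthy array. Fbln5 rose by 0.77 with metastatic IgG (SE 0.12, 95% interval 0.49 to 1.06, adjusted p = 0.0134, limma) and by 0.72 under DC101 (SE 0.13, 95% interval 0.42 to 1.02, adjusted p = 0.037), both against healthy lungs. A dimmer Fbln5 probe set (1446377_at), tested alone, gave 0.54 (adjusted p = 0.143) for metastatic IgG and 0.61 (adjusted p = 0.197) for DC101.

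Ltbp4, a latent TGF-beta binding protein that fibulin-5 needs for elastic fibre assembly, went the opposite way to Fbln5. It read 11.77, 11.6 and 11.77 under DC101, 11.79, 11.8 and 11.78 with metastatic IgG and 12.44, 12.44 and 12.27 in healthy lungs. All 6 metastatic arrays were below all healthy arrays, and the metastatic groups were separated only narrowly. Ltbp4 fell by 0.59 with metastatic IgG (SE 0.09, 95% interval -0.8 to -0.38, adjusted p = 0.0118, limma) and by 0.67 under DC101 (SE 0.11, 95% interval -0.92 to -0.42, adjusted p = 0.0274), both relative to healthy lungs. Its only probe set (1436665_a_at) has the _a_at ending, which was left out together with _s_at and _x_at in an alternative.

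Mgp, the matrix Gla protein that inhibits BMP signalling and calcification, had its highest level under DC101. It read 12.47, 12.3 and 12.36 on those arrays, 11.84, 12.15 and 12.22 on metastatic IgG arrays and 11.79, 11.67 and 11.59 on healthy arrays. No ranges overlapped, in the reverse order of Bmx. Mgp rose by 0.69 under DC101 relative to healthy lungs (SE 0.11, 95% interval 0.44 to 0.95, adjusted p = 0.0239, limma), a 1.62-fold higher level. Its change with metastatic IgG was 0.39 (SE 0.13, 95% interval 0.09 to 0.69, adjusted p = 0.129) and did not pass.

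Sequence upstream of the start sites was examined for motifs of the factors that set these identities. RefSeq promoter windows of 250 bases before the start (mouse build GRCm38.p6) were found for 7 of the 10 genes, Gja4, Gja5, Bmx, Fbln5, Ltbp4, Nr2f2 and Amigo2, in 10 windows. The core motif TGGGAA of RBPJ, the DNA-binding partner of Notch, was present on either strand in 2 of the 10 windows, 1 of Bmx and 1 of Fbln5, beside 21.6% of 32817 mouse promoter windows. The nuclear receptor motif AGGTCA, bound by the Nr2f2 product, was in 0 of 10 windows beside 14%. The SOX motif AACAAT was in 0 of 10 beside 9.42%. The 10 windows are not 10 separate sequences, because 2 Ltbp4 windows overlap (chr7:27333649-27333898 and chr7:27333664-27333913). By gene the counts were 2 of 7 for TGGGAA and 0 of 7 for AGGTCA and for AACAAT. Windows of the 2 genes with a match are shown because these genes were called in opposite directions in metastatic against healthy lungs, Bmx lower and Fbln5 higher. Both are read 5′ to 3′ on the gene's strand, at chrX:164258194-164258443 (minus strand) for Bmx and chr12:101819120-101819369 (minus strand) for 1 of 2 Fbln5 start sites. Capitals mark the match, which in Fbln5 lies on the opposite strand and so appears as TTCCCA. A match is a description of the letters, not a bound site.
Bmx: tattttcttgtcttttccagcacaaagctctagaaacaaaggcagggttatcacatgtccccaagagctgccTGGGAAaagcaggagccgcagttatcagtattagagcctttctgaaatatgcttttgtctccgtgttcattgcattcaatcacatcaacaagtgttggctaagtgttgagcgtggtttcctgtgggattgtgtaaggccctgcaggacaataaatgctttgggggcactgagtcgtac
Fbln5: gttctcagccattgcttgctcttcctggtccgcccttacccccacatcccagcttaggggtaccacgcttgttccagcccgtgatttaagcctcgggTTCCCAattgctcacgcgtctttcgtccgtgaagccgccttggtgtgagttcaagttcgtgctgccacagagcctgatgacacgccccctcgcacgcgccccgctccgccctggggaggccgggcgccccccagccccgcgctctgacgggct

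Fibroblasts and smooth muscle cells also express Fbln5, Ltbp4 and Mgp, and markers of both cell types moved. Of 11 fibroblast markers, 4 were called higher (3.93% of all genes) and 5 lower (2.6%) in metastatic IgG against healthy lungs. The mean level of the list was 10.74 to 10.82 on DC101 arrays, 10.31 to 10.76 on metastatic IgG arrays and 10.41 to 10.64 on healthy arrays. Col1a1 was among the higher (1.85) and Dcn among the lower (-1.05). Of 10 mural and smooth muscle markers, 2 were called lower (Myh11, -1.14, and Cnn1, -0.81), and the list mean was 9.09 to 9.14 under DC101, 8.85 to 9.01 with metastatic IgG and 9.25 to 9.28 in healthy lungs. The part of these cells in the 3 matrix genes was not tested.

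Nr2f2, the transcription factor of venous identity, was higher in metastatic lungs. It read 11.95, 11.52 and 12.12 under DC101, 11.6, 11.85 and 11.72 with metastatic IgG and 11.06, 10.88 and 11.27 in healthy lungs. All metastatic arrays were above all healthy ones, and the 2 metastatic groups overlapped. Nr2f2 rose by 0.66 with metastatic IgG (SE 0.13, 95% interval 0.36 to 0.96, adjusted p = 0.0289, limma) relative to healthy lungs. Under DC101 the larger change of 0.79 had a larger error (SE 0.18, 95% interval 0.37 to 1.22, adjusted p = 0.0794) and did not pass. The other 5 Nr2f2 probe sets were dimmer, and tested alone their changes with metastatic IgG were 0.17, -0.15, 0.41, 0.14 and 0.3, with none passing. With the mean of all Nr2f2 probe sets the change was 0.26 (adjusted p = 0.168), and the call was lost in 8 of 13 alternatives.

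Lymphatic ECs express Nr2f2 as well, and their markers were higher in metastatic lungs. Of 10 lymphatic markers measured, 7 were called higher in metastatic IgG against healthy lungs, against 3.93% of all genes, and none lower. The largest change was that of the lymphatic master regulator Prox1 (2.31, SE 0.41, adjusted p = 0.0208, limma). Prox1 was dim in healthy lungs, at 7.76, 8.05 and 6.41, below the median gene level of 9.03. Lyve1 was an exception in sign (-0.2, adjusted p = 0.28). The list mean was 9.7 to 10.06 under DC101, 9.88 to 10.11 with metastatic IgG and 8.72 to 9.16 in healthy lungs, so metastatic and healthy arrays did not overlap. The lymphatic VEGF receptor gene Flt4 (0.41, adjusted p = 0.0712) did not pass. In DC101 against healthy lungs 2 of the 10 were called, both higher, against 1.58% of all genes called higher. Prox1 was not among them (1.79, adjusted p = 0.159, limma). The part of lymphatic ECs in the Nr2f2 change was not tested.

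Slc6a2 and Amigo2, the other venous genes, were lower in metastatic IgG lungs than in healthy lungs, unlike Nr2f2. Slc6a2, the noradrenaline transporter found in lung venous endothelium, read 12.78, 11.89 and 11.6 under DC101, 11.42, 11.29 and 11.59 with metastatic IgG and 12.1, 11.79 and 12.2 in healthy lungs. The metastatic IgG arrays were the lowest, and the DC101 arrays ran from just above them to beyond the healthy arrays. Slc6a2 fell by 0.6 with metastatic IgG relative to healthy lungs (SE 0.14, 95% interval -0.92 to -0.27, adjusted p = 0.04997, limma), as the last of the 1188 called genes. The call was lost with all 9 arrays in 1 fit (adjusted p = 0.258), with the mean of probe sets (0.0786) and with centring on pan-endothelial markers (0.0753). It was also lost without probe sets ending in _s_at, _x_at or _a_at (0.0542). Under DC101 its change from healthy lungs was 0.06 (SE 0.29, 95% interval -0.63 to 0.74, adjusted p = 0.945).

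The 3 other Slc6a2 probe sets had lower mean levels in metastatic IgG lungs too, with changes from healthy lungs of -0.7 (1442449_at), -0.4 (1421641_at) and -0.7 (1447311_at), none passing alone. On 1421641_at the metastatic IgG and healthy arrays overlapped. Markers of cardiac muscle, which sheathes the large pulmonary veins in mouse, fell at 1 of 9 genes, Actc1 (-2.36). The mean of that list was 7.3 to 7.55 on DC101 arrays, 7.47 to 7.54 on metastatic IgG arrays and 7.75 to 8.09 on healthy arrays. Its part in the Slc6a2 difference was not tested.

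Amigo2, an adhesion protein with leucine-rich repeats, read 11.35, 10.32 and 10.83 under DC101, 10.24, 10.42 and 10.54 with metastatic IgG and 11.56, 11.47 and 10.95 in healthy lungs. Metastatic IgG and healthy arrays did not overlap, and the DC101 arrays overlapped both. Amigo2 fell by 0.92 with metastatic IgG relative to healthy lungs (SE 0.18, 95% interval -1.34 to -0.51, adjusted p = 0.0273, limma), and 3.19% of all genes had a larger absolute change. Under DC101 the change from healthy lungs was -0.49 (SE 0.28, 95% interval -1.14 to 0.16, adjusted p = 0.426), and it was -0.75 without DC101 replicate 1 and -0.23 without DC101 replicate 2. The other Amigo2 probe set (1447769_x_at) lay near the low end of the scale, at 6.69 to 7.04 over all arrays, and changed by 0.1 with metastatic IgG. With the mean of both probe sets the change was -0.41 (adjusted p = 0.0754).

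**Figure D2:**
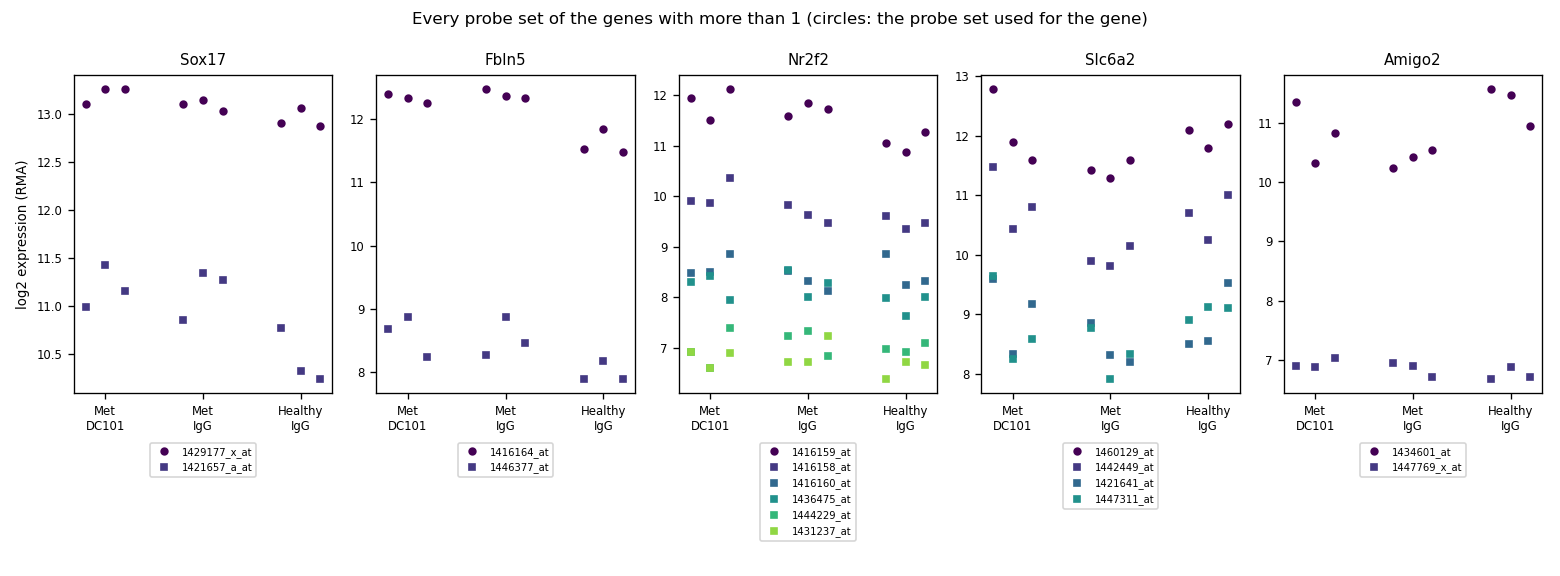
Every probe set of the 5 genes that have more than 1 (log2 expression as deposited, y axis), by array and group. Circles mark the probe set that stood for the gene and squares the others. The second Sox17 probe set separates metastatic from healthy arrays more widely than the brighter one, and the metastatic IgG arrays lie below all others on the 2 brightest of the 4 Slc6a2 probe sets but not on the 2 dimmer ones.

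Between metastatic IgG and healthy lungs, leaving out 1 array ended calls while the changes stayed close, and the count over all genes fell as well, to between 556 and 759. Without healthy replicate 1 the change was -0.51 for Bmx (adjusted p = 0.0552, limma), 0.73 for Fbln5 (adjusted p = 0.0572) and -0.57 for Ltbp4 (adjusted p = 0.0522), and each of the 3 was called when any other single array was left out. Nr2f2 and Amigo2 were called only when healthy replicate 3 was left out and Slc6a2 only when healthy replicate 2 was, and with another array left out the adjusted p reached 0.093 for Nr2f2, 0.0874 for Amigo2 and 0.15 for Slc6a2. Their changes then ran between 0.56 and 0.76 for Nr2f2, -1.11 and -0.81 for Amigo2, and -0.72 and -0.52 for Slc6a2.

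DC101 blocks the receptor through which VEGF supports arterial gene expression, and the comparison within metastatic lungs addresses what changed when it was given. No identity gene changed by the test between DC101 and metastatic IgG lungs. Of the 10 genes 0 were called, and so were 0 of all 18193 genes (0%, limma), in either direction. At an unadjusted p under 0.05 there were 1209 genes (6.65%) and 0 of the 10. DC101 and metastatic IgG arrays were fully separated for 4 of the 10 genes, against 12.4% of all genes. Mgp and Slc6a2 were the 2 higher (5.4% of all genes) and Bmx and Ltbp4 the 2 lower (6.95% of all genes). The median change of the 10 was 0.03, beside -0.02 over all genes, and their median absolute change was 0.24, beside 0.12.

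Among venous genes, the change of Slc6a2 was 0.66 (SE 0.28, 95% interval -0.01 to 1.32, adjusted p = 0.741, limma), and only 1.06% of all genes had a larger absolute change. DC101 replicate 1 had the highest value, and without it the change was 0.31. Its second brightest probe set (1442449_at) gave 0.95 (SE 0.26, adjusted p = 0.801) and did not overlap between the groups either. Amigo2 differed by 0.43 (SE 0.25, 95% interval -0.14 to 1.01, adjusted p = 0.773), with DC101 replicate 1 highest again, and by 0.17 without that array. Nr2f2 differed by 0.14 (SE 0.17, 95% interval -0.26 to 0.54), by 0.31 without DC101 replicate 2 and by 0.01 without DC101 replicate 3.

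Among arterial genes, Gja4 differed by -0.29 (SE 0.13, 95% interval -0.6 to 0.03, adjusted p = 0.75, limma) and Gja5 by -0.25 (SE 0.16, 95% interval -0.62 to 0.12, adjusted p = 0.793). Mgp differed by 0.3 (SE 0.13, 95% interval 0 to 0.61, adjusted p = 0.741). Sox17 (0.11, 95% interval -0.13 to 0.36), Fbln5 (-0.05, -0.29 to 0.19) and Ltbp4 (-0.08, -0.31 to 0.16) had intervals that reach at most 0.36 from 0. These intervals still admit changes of that size, so a likeness of the groups is not shown.

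The comparison of DC101-treated metastatic lungs with healthy lungs shares arrays with both others and is given side by side. There 4 of 10 genes were called, against 2.42% of all genes. Fbln5 and Mgp were higher (1.58% of all genes called higher) and Bmx and Ltbp4 lower (0.835% called lower). Nr2f2, at 0.79, had the change of largest size among the 10 and an adjusted p of 0.0794 (limma), which passed under 4 alternatives at 0.034 to 0.0468. At an unadjusted p under 0.05 there were 7 of 10, against 17% of all genes, and arrays were fully separated for 7 of 10, against 23.1%. Of those, 4 were higher (9.44% of all genes) and 3 lower (13.6%). Leaving out any 1 array left 0 or 1 of the 10 genes called and 110 to 361 of all genes, against 440 with all arrays. The changes stayed close, at -0.83 to -0.72 for Bmx, 0.65 to 0.83 for Fbln5, -0.73 to -0.61 for Ltbp4 and 0.65 to 0.75 for Mgp. The adjusted p (limma) was 0.0853 for Bmx, 0.141 for Fbln5 and 0.114 for Ltbp4 without healthy replicate 1, and 0.0903 for Mgp without healthy replicate 2.

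**Figure D3:**
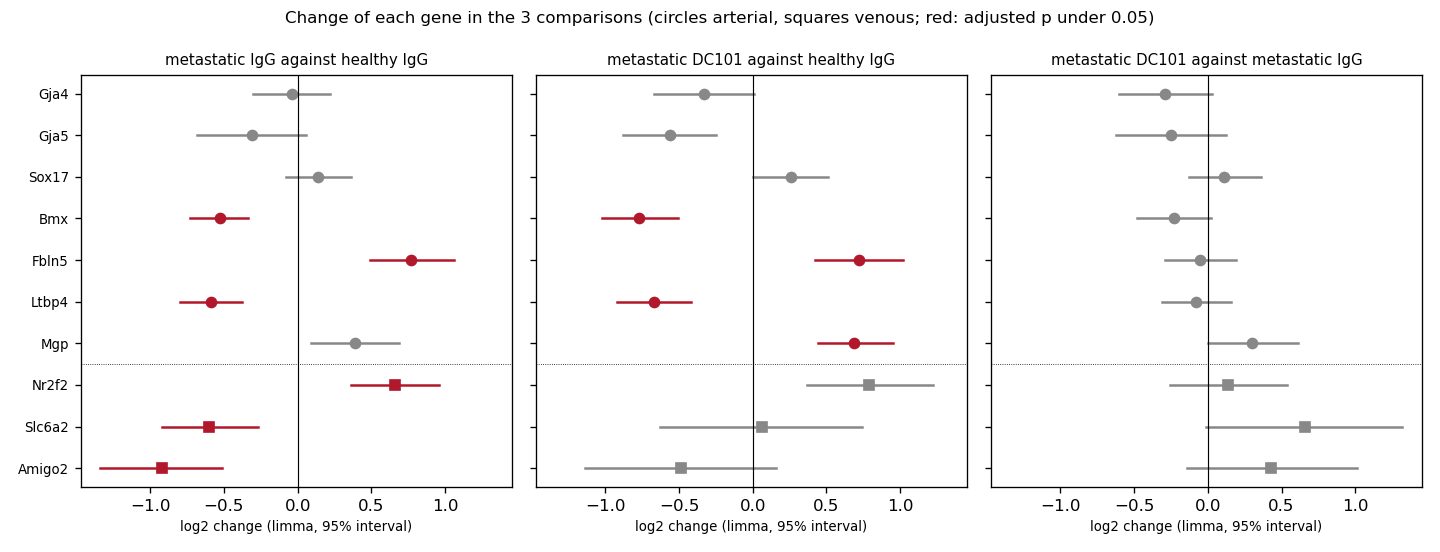
Log2 change of each identity gene (x axis, points) with its 95% interval (lines) in the 3 comparisons, arterial genes as circles above the dotted line and venous genes as squares below it. Red marks an adjusted p under 0.05. There are 6 calls for metastatic IgG and 4 for DC101 against healthy lungs, and none between the metastatic groups.

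Other arterial genes also moved both ways. Of 27 further arterial genes measured, 3 were called higher (3.93% of all genes) and 3 lower (2.6%) in metastatic IgG against healthy lungs. The list median was -0.07 beside -0.02 over all genes. Higher were Igfbp3, which binds insulin-like growth factors (1.16, adjusted p = 0.00365, limma), the netrin receptor Unc5b (0.84, adjusted p = 0.0055) and the chemokine receptor Cxcr4 (0.68, adjusted p = 0.0237). Cytl1, a small secreted protein, was the lowest. It read 11.52, 11.63 and 11.67 under DC101, 11.29, 11.37 and 11.44 with metastatic IgG and 12.86, 12.62 and 12.6 in healthy lungs, a change of -1.32 (adjusted p = 0.00135) with metastatic IgG and of -1.09 (adjusted p = 0.0064) under DC101. Stmn2 (-0.79, adjusted p = 0.0226) and the semaphorin gene Sema3g (-0.4, adjusted p = 0.0476) were also lower with metastatic IgG. None of the Notch pathway genes of the list passed. With metastatic IgG against healthy lungs their changes were -0.07 for Dll4, -0.29 for Jag1, 0.07 for Jag2 and -0.26 for Notch1. They were -0.08 for Notch4, -0.09 for Hey1 and -0.28 for Hey2. The arrays of Jag1 and Notch1 were fully separated lower, against 14.7% of all genes. Under DC101 against healthy lungs Hey2 (-0.81, adjusted p = 0.129, limma), Dll4 (-0.29) and Notch1 (-0.28) were fully separated lower, against 13.6% of all genes. Hey2 was dim, at a mean of 7.24 under DC101 and 8.05 in healthy lungs, below the median gene level of 9.03. The arterial ephrin gene Efnb2 was at -0.17 (adjusted p = 0.313) with metastatic IgG. In DC101 against healthy lungs 1 of the 27 was called, Cytl1, against 2.42% of all genes. In DC101 against metastatic IgG lungs none was, and the list median was -0.02.

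The other venous genes that were called were all higher in metastatic lungs. Of 15 further venous genes measured, 5 were called higher (3.93% of all genes) and 0 lower (2.6%) in metastatic IgG against healthy lungs. The list median was 0.51. Lrg1, a secreted glycoprotein of venous and inflamed endothelium, read 12.74, 12.7 and 12.41 under DC101, 12.8, 12.78 and 12.45 with metastatic IgG and 10.9, 10.69 and 10.65 in healthy lungs. Its change with metastatic IgG was 1.93 (adjusted p = 0.000718, limma). The chemokine-binding receptor Ackr1 (1.71, adjusted p = 0.00219), the VEGF-C co-receptor Nrp2 (1.59, adjusted p = 0.00141) and the adhesion molecule Selp (1.06, adjusted p = 0.0208) rose with it. Nrp2 is a gene of lymphatic ECs too, and Lrg1, Ackr1 and Selp are also known from inflamed endothelium. Emcn rose by 0.53 (adjusted p = 0.0341). The venous receptor gene Ephb4 (-0.16, adjusted p = 0.393) and Vwf (-0.15, adjusted p = 0.376) did not pass.

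In DC101 against healthy lungs 5 of the 15 were called higher (1.58% of all genes) and 0 lower (0.835%), with a list median of 0.21. They were Lrg1 (1.87), Ackr1 (1.69), Nrp2 (1.3), Cyp1b1 (0.93, adjusted p = 0.0292, limma) and Tmem252 (0.8, adjusted p = 0.0248). In DC101 against metastatic IgG lungs none was called and the median was -0.06. The mean level of the 15 genes was 11.61 to 11.83 on DC101 arrays, 11.77 to 11.87 on metastatic IgG arrays and 11.15 to 11.37 on healthy arrays. Of the 15, 8 were fully separated higher and 1 (Vwf) lower with metastatic IgG, against 13% and 14.7% of all genes. Under DC101 9 were fully separated higher and 3 lower than in healthy lungs, against 9.44% and 13.6%. The 3 were Vwf (-0.15), Aplnr (-0.21) and Car8 (-0.7, adjusted p = 0.117, limma). Slc6a2 and Amigo2 were thus called lower in metastatic IgG lungs and none of these 15 was. Vwf, Ephb4 and Car8 (-0.5, adjusted p = 0.309, limma) also had negative changes there.

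**Figure D4:**
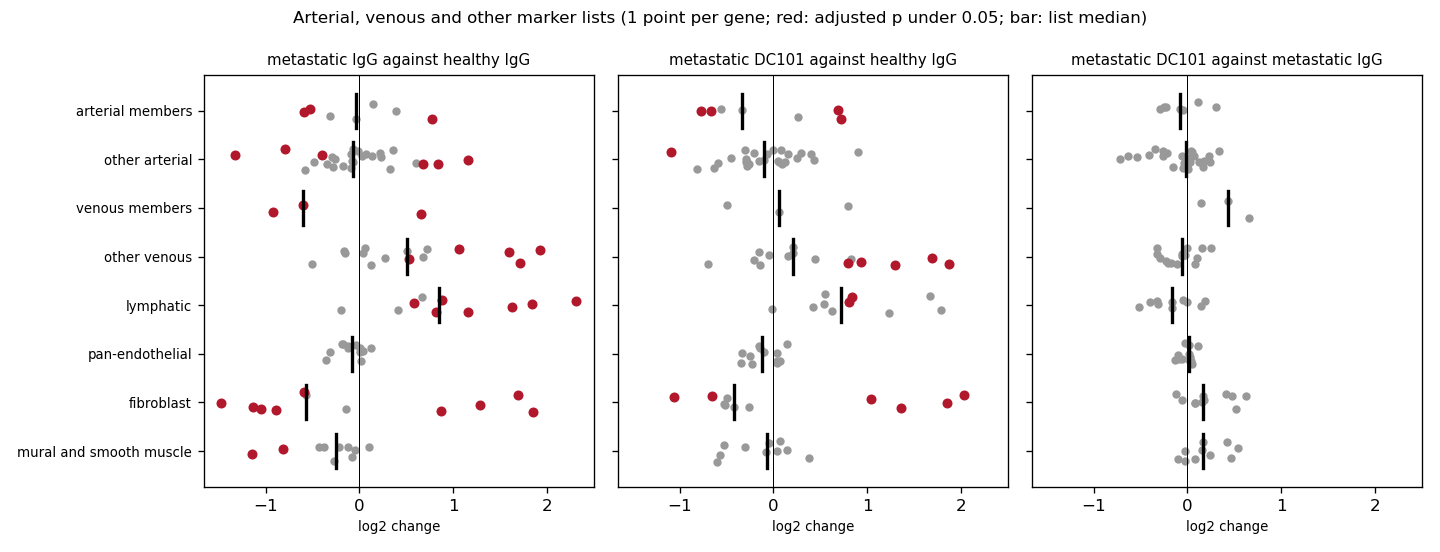
Log2 change (x axis) of every gene of the arterial, venous, lymphatic, pan-endothelial, fibroblast and mural lists in the 3 comparisons, 1 point per gene, with list medians as bars and adjusted p under 0.05 in red. With metastatic IgG, the other venous and the lymphatic lists have medians of 0.51 and 0.85, and the pan-endothelial list one of -0.08.

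Markers of further cell types that may remain after sorting were uneven between groups. Their levels differed widely within a list. In healthy lungs the epithelial markers Sftpc and Epcam averaged 13.03 and 7.36, and the immune markers Lyz2 and Cd3e 12.4 and 6.67. In metastatic IgG against healthy lungs 3 of 8 epithelial markers were called lower, against 2.6% of all genes. The list means were 8.7 to 9.71 under DC101, 8.75 to 8.96 with metastatic IgG and 9.13 to 9.79 in healthy lungs. Of 9 immune markers 1 was called higher (C1qa), with means of 8.33 to 8.91 under DC101, 8.61 to 8.86 with metastatic IgG and 8.63 to 8.75 in healthy lungs. Of 4 mesothelial markers 0 were called with metastatic IgG and 1 (Wt1) under DC101, both against healthy lungs, with means of 7.47 to 8.96, 7.42 to 7.95 and 7.03 to 7.94 for DC101, metastatic IgG and healthy arrays.

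Over the 9 arrays, the identity genes were compared with each other and with all other genes. As a description, Bmx and Ltbp4 had r = 0.95, Gja5 and Mgp r = -0.93, Fbln5 and Ltbp4 r = -0.9 and Mgp and Nr2f2 r = 0.83. With each array taken relative to its group mean, r was 0.14 for Bmx and Ltbp4, -0.8 for Gja5 and Mgp, 0.39 for Fbln5 and Ltbp4 and 0.27 for Mgp and Nr2f2. Among these pairs, the values over 9 arrays were thus carried by the group means except for Gja5 and Mgp. Other pairs also kept their r within groups, such as Sox17 and Bmx (-0.89, within groups -0.78) and Gja4 and Nr2f2 (-0.76, within groups -0.92). The 2 genes most like each identity gene, by Pearson r over the 9 arrays among 18192 others, were Spef1 (0.986) and Zfp317 (0.966) for Gja4, and Nxf1 (0.984) and Fam221b (0.954) for Gja5. They were Mchr1 (0.984) and Fyttd1 (0.966) for Sox17, Irs1 (0.981) and Bcam (0.98) for Bmx, Prcp (0.995) and Col4a2 (0.986) for Fbln5, and Mettl7a1 (0.985) and Jup (0.983) for Ltbp4. Mgp was closest to Ephb6 (0.972) and Atp11a (0.951), Nr2f2 to Aldh1a2 (0.969) and Flt4 (0.968), Slc6a2 to Cdkn1a (0.97) and Nfam1 (0.963), and Amigo2 to Slc16a9 (0.961) and Inpp5k (0.946). The arrays share their groups and their normalization, and these values are the highest of many.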

How the data were processed

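RNA of sorted lung ECs was amplified with a 3-prime kit and hybridised to Affymetrix mouse arrays. The deposited values are log2 expression values of 45101 probe sets, 1 column per array, which the authors normalized by robust multiarray averaging (RMA) in Chipster. The log base is taken from RMA. RMA equalises arrays, so total RNA per cell cannot be seen and dim probe sets understate changes. The build behind the probe sets is not given in the sources used here.

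The 64 control probe sets were left out, as were 932 with several symbols and 9160 unnamed ones. For each of 18193 genes the brightest probe set, by its average across 9 arrays, was used. Linear models were fitted to the 6 arrays of each comparison with limma 3.58.1 (lmFit, eBayes; R 4.3.3), two-sided, with Benjamini-Hochberg adjustment over all genes. SEs are limma's, SDs are over 3 arrays. The script was tested on simulated data.

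All 10 identity genes are named, with other arterial or venous genes that were called (up to 4 in each direction by size, plus a few added after their values were seen: Emcn, Tmem252, the Notch pathway genes, Efnb2, Ephb4 and Vwf). The same holds for genes named from other cell type lists. The genes and lists were chosen with earlier results of these data known. Alternatives were 7 settings, leaving out each array, and each other probe set alone, the last added after seeing the data. No scan date or slide was used.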

Additional observations from a re-analysis of the deposited data

How the results depend on the processing

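Against the 6 identity genes called between metastatic IgG and healthy lungs, 3 were called with the mean of all probe sets of a gene and 3 with all 9 arrays in 1 fit (Bmx, Fbln5 and Ltbp4 in both), and 3 with the replicate block (Fbln5, Ltbp4 and Slc6a2). Leaving out 1 array gave 0 to 5. Against 1188 genes in all, the replicate block gave 689 and leaving out 1 array 556 to 759. Against the 4 called between DC101 and healthy lungs, the replicate block gave 0 and leaving out 1 array 0 to 1. Against 440 genes in all there, all 9 arrays gave 662, the replicate block 247 and leaving out 1 array 110 to 361. Between DC101 and metastatic IgG lungs 0 genes were called under each alternative run. Same-numbered arrays did not deviate together (r = -0.05 to 0.08) and 6 of 18 checks placed an array best with its own number, so the numbers were not taken as pairs. Centring on the pan-endothelial markers moved the median of all genes to 0.07 for metastatic IgG and to 0.07 for DC101 against healthy lungs, and the calls to 1002 higher and 292 lower (715 and 473 as deposited) and to 338 and 69 (288 and 152). Some signs turned. Against healthy lungs with IgG these were Gja4 at 0.05 with that centring and 0.02 without healthy replicate 2 (-0.13 to 0.02 leaving out 1 array), Nr2f2 at -0.15 (1416160_at) and Amigo2 at 0.1 (1447769_x_at). Against healthy lungs under DC101 they were Amigo2 at 0.18 (1447769_x_at), Nr2f2 at -0.02 (1444229_at), and Slc6a2 at -0.29 without DC101 replicate 1, -0.06 without healthy replicate 2 (-0.29 to 0.3 leaving out 1 array) and -0.22 (1447311_at). Between the metastatic groups they were Fbln5 at 0.01 with the mean of probe sets and 0.07 (1446377_at), and Nr2f2 at -0.06, -0.17 and -0.08 on 3 dim probe sets. Nr2f2 passed in DC101 against healthy lungs under 4 alternatives, with adjusted p = 0.034 to 0.228 over all of them (limma). Of the other values for single genes, called or not, 334 kept direction and side of the threshold. The 65 that lost the call could come only from called results. Over settings and left-out arrays, the Bmx call with metastatic IgG against healthy lungs held in 11 of 13. Fbln5 held in 12 of 13, Ltbp4 in 11 of 12, Nr2f2 and Amigo2 in 5 of 13 and Slc6a2 in 4 of 13. Under DC101 against healthy lungs, Bmx held in 8 of 13, Fbln5 and Mgp in 6 of 13 and Ltbp4 in 4 of 12. Sox17 and Ltbp4 have no value without probe sets ending in _s_at, _x_at or _a_at. Where a change with a setting is given, the cause was not tested.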
